A study of Mus musculus with 12 samples.

Results

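In all, 10 genes of doxorubicin efflux and metabolism were followed through mouse tumours treated with doxorubicin, a doxorubicin prodrug, an antibody conjugate or their combinations. The 10 genes were taken by name from the table of gene counts. They were 5 efflux pumps (Abcb1a, Abcb1b, Abcc1, Abcc3 and Abcg2), 3 enzymes of carbonyl reduction (Cbr1, Cbr3 and Akr1a1) and 2 enzymes of single-electron reduction (Por and Xdh). Each had 1 row among the 43698 rows of the table, and all 10 passed the low-count filter that left 19525 genes for testing.

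C57BL/6J mice of 8 weeks carried subcutaneous tumours of MC38, a colon carcinoma line of the mouse, and the tumours were harvested on day 20 after inoculation. A total of 6 groups of 2 RNA-seq libraries each were compared, with treatment every 3 days from day 9 per the labels. R+D and R+X are read as the conjugate Ru-PD-L1 followed after 6 hours by 14 µg of DPD (R+D) or DOX (R+X), injected beside the tumour. The conjugate dose of these combined groups is not stated. RP is read as 20 µg (0.80 mg/kg) of Ru-PD-L1, a conjugate of a catalyst with an antibody to the checkpoint ligand PD-L1, given alone into the peritoneum. DPD, read as the prodrug, and DOX, doxorubicin, were each given alone into the peritoneum at 14 µg (0.56 mg/kg). Ctrl mice received PBS. The combinations thus differed from the single drugs in the route of the drug as well as in the conjugate. Separate mice for the libraries of 1 group are not stated in the labels, and p-values here rest on a spread that may be technical.

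Anthracyclines such as doxorubicin enter cells, bind DNA and are pumped out again by ATP-binding cassette transporters, of which P-glycoprotein is the best known. Inside the cell, carbonyl reductases and aldo-keto reductases turn the ketone of the side chain into an alcohol, giving doxorubicinol in human tissue. Flavin enzymes such as cytochrome P450 reductase and xanthine oxidase can pass a single electron to the quinone ring, and the semiquinone that forms reacts with oxygen to give superoxide. In a tumour these transcripts come from carcinoma cells and from immune, vascular and stromal cells alike.

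P-glycoprotein is made from 1 gene in humans and from a pair of neighbouring genes in mice. In GENCODE vM21 (GRCm38) Abcb1a (ENSMUSG00000040584.8) lies at chr5:8660077-8748575 and Abcb1b (ENSMUSG00000028970.9) at chr5:8798147-8866315, both on the plus strand with 28 exons each and 49571 bases apart. Their coding sequences were identical at 3360 of 3819 aligned bases (88.0%), with a longest identical run of 338 bases. Windows of 60 coding bases are shown because they set how far reads can tell the pair apart. The first window is the same in both genes, and the second holds 25 mismatches, which are in capitals.
Abcb1a, coding bases 328 to 387: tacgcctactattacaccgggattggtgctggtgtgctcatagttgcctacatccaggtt
Abcb1b, coding bases 337 to 396: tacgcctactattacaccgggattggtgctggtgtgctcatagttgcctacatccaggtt
Abcb1a, coding bases 1913 to 1972: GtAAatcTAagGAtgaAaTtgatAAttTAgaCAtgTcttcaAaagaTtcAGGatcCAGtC
Abcb1b, coding bases 1922 to 1981: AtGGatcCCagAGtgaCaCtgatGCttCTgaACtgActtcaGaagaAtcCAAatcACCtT
Of the 50-base words of the Abcb1a transcript, 840 of 4948 (17%) also occurred in Abcb1b or in another relative, Abcb4. For Abcb1b the figure was 779 of 4257 (18.3%). Reads from such stretches can be split between the genes. Abcb1b had many more counts than Abcb1a, for example 3119 against 269 in Ctrl replicate 1. Abcb1b reads placed on Abcb1a could thus make up more of its level than these shares of words. How much they do was not measured, and this holds for all Abcb1a values given here. Cbr1 and Cbr3, 72709 bases apart on chromosome 16, were 77.1% identical over 831 coding bases and shared 1 such word. In all, 49 of 1188 words of Cbr1 (4.12%) occurred in Cbr3 or in Gm5678. The level of Cbr1, the least counted of the genes, is thus uncertain as well, by an amount not measured. The other 6 genes shared none. The use of strand in counting is not given in the sources used here, so reads of antisense genes that overlap Abcb1a (Gm42686), Abcb1b (Gm5106) and Por (Gm16061 and Gm43091) cannot be told from theirs. Genes on the same strand overlap the spans of Abcb1a (Gm42684), Abcb1b (7330423F06Rik), Abcc1 (Gm23116) and Xdh (CT025731.2). Spans include introns, and strand would not tell these genes apart.

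The promoters of the P-glycoprotein pair are shown because both transcripts varied together over the libraries, as described further on. The sequences are RefSeq's for GRCm38.p6 and span the annotated start of the transcript. In Abcb1a the capitals mark an antioxidant response element core (TGACNNNGC, both strands searched) on the minus strand, 26 bases past the start. RefSeq places this start upstream of the GENCODE gene.
Abcb1a, chr5:8566841-8567140, plus strand: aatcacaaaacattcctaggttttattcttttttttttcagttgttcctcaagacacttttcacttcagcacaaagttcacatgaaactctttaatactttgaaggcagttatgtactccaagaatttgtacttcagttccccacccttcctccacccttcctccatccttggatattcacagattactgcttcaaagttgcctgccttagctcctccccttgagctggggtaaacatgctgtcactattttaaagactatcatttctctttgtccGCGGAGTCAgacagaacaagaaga
In Abcb1b the capitals mark a CCAAT box on the plus strand 87 bases upstream of the start, a CCAAT box on the minus strand 66 bases upstream, and a GC box (GGGCGG) 48 bases upstream.
Abcb1b, chr5:8797897-8798196, plus strand: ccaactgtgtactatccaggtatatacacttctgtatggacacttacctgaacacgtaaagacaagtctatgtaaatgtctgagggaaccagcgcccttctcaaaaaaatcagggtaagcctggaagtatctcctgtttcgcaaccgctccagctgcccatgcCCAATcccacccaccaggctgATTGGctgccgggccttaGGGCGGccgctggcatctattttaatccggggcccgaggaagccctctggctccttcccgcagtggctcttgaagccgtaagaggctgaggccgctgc
The marked motifs do not overlap each other. Of 32851 promoters in the same table, 12.4% held the antioxidant response element core, 37.4% a CCAAT box and 35.7% a GC box, so each is a common string and a match is a description only. Of the 7 genes with a promoter entry, Abcb1a alone held the antioxidant response element core. The entries did not include Abcc1, Abcc3 and Xdh.

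Total counts were 46547114 to 56462259 per library, and levels are given as CPM, counts scaled by TMM to a common library size. Markers of the labelled tissue were weak: of 10 epithelial markers Cdx2 was at 0 in all 12 libraries, Epcam reached 1.302 CPM and Krt8 0.309 CPM at most, while Cdh1 had 9.90 to 18.1 CPM and Lgals4 7.35 to 12.8 CPM. Libraries also differed in how counts depended on transcript length. For each library the Spearman correlation, over genes, of transcript length with the gene's log2 ratio to the mean of all libraries is called its length trend here. It was negative in both Ctrl libraries (-0.284 and -0.474), in DPD replicate 1 (-0.367) and in DOX replicate 1 (-0.422), and positive in the other 8 libraries (0.046 to 0.371). No RP library thus shared the sign of a Ctrl library, and values with the trend removed are given for the genes that the results turn on.

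Per kilobase of transcript, the 10 genes covered a wide range of levels. Akr1a1, an aldehyde reductase of general metabolism, was far above the others with a median of 332 CPM per kb over the 12 libraries (range 261 to 552). It stood at percentile 98.9 of the 16252 genes tested that had a transcript length. Xdh (34.3 CPM per kb, 20.1 to 59.5) and Por (31.6, 23.8 to 47.4) came next, with overlapping ranges. Among the pumps, Abcb1b (16.9 CPM per kb) and Abcc1 (11.5) led and also overlapped, with ranges of 11.7 to 21.6 and 7.82 to 15.2. The carbonyl reductase Cbr3 had a median of 4.82 CPM per kb and Cbr1 one of 2.21. Abcg2 (1.18 CPM per kb), Abcb1a (1.12) and Abcc3 (1.03) were lowest, and their ranges overlapped.

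**Figure D1:**
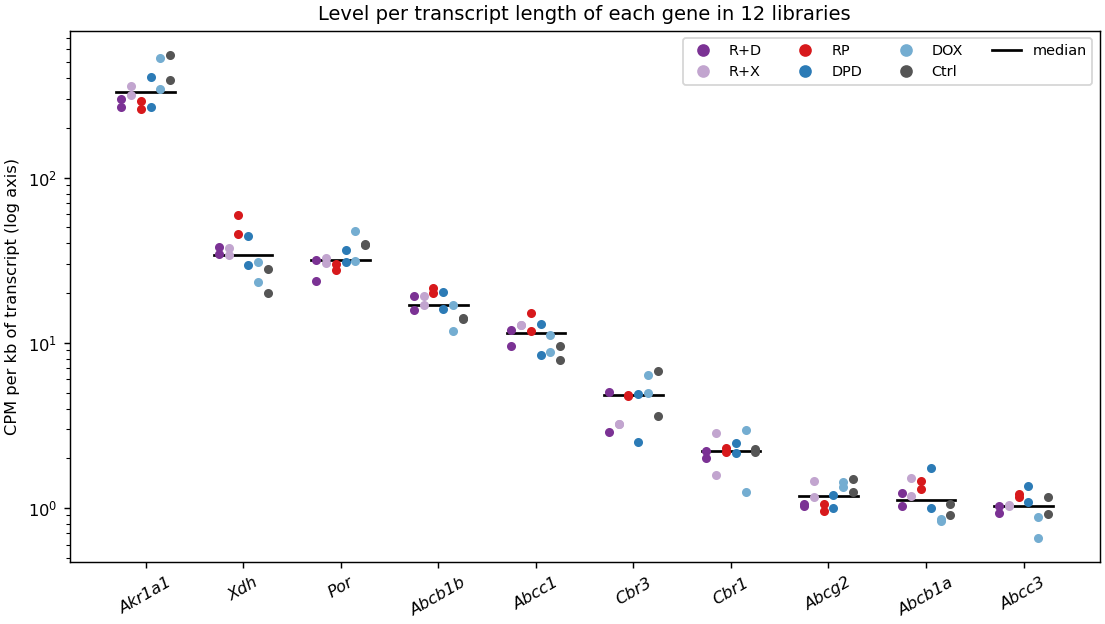
Level of each gene in CPM per kb of transcript (log axis) in the 12 libraries, coloured by group, with the median as a bar. Akr1a1 stands above the other genes plotted in every library, and Abcg2, Abcb1a and Abcc3 share the lowest range.

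Abcb1b, the stronger of the mouse P-glycoprotein genes, measured 82.9 and 68.2 in R+D, 82.5 and 72.9 in R+X, 85.9 and 93.0 in RP, 69.5 and 87.7 in DPD and 50.5 and 72.7 in DOX libraries, against 61.2 and 60.1 in Ctrl libraries (CPM). All libraries of the R+D, R+X, RP and DPD groups lay above both Ctrl libraries, while the DOX libraries fell on either side of them. In RP tumours the mean was 89.5 ± 5.04 CPM, against 60.7 ± 0.766 CPM in Ctrl tumours (SD, n = 2 each), a log2 fold change of 0.56 ± 0.20 (SE; edgeR adjusted p = 0.179), which missed the threshold of 0.05.
Abcb1a, its neighbour, measured 6.13 and 5.12 in R+D, 7.64 and 5.91 in R+X, 6.48 and 7.25 in RP, 4.98 and 8.74 in DPD and 4.15 and 4.25 in DOX libraries, against 5.28 and 4.50 in Ctrl libraries (CPM). Both RP and both R+X libraries lay above the Ctrl libraries, both DOX libraries lay below them, and the single highest value was DPD replicate 2. The share of Abcb1b in the counts of the pair ranged from 90.9% (95% exact binomial interval 90.1% to 91.7%) in DPD replicate 2 to 94.5% (93.7% to 95.2%) in DOX replicate 2. The intervals of these libraries did not overlap, and they cover counting error only.

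Abcc1 (MRP1), which exports drugs together with or conjugated to glutathione, measured 65.2 and 81.7 in R+D, 86.7 and 86.6 in R+X, 80.1 and 103 in RP, 57.5 and 87.8 in DPD and 59.7 and 75.7 in DOX libraries, against 65.4 and 53.1 in Ctrl libraries (CPM). RP and R+X libraries lay above both Ctrl libraries, and the R+D, DPD and DOX libraries overlapped with Ctrl. The log2 fold change was 0.63 ± 0.23 for RP over Ctrl (edgeR adjusted p = 0.187). It was 0.24 after the length and GC trend of each library was removed.
Abcc3 (MRP3), an exporter of organic anions and glucuronides, measured 5.14 and 4.65 in R+D, 5.13 and 5.18 in R+X, 6.10 and 5.81 in RP, 6.76 and 5.42 in DPD and 3.29 and 4.41 in DOX libraries, against 5.81 and 4.60 in Ctrl libraries (CPM). Both DOX libraries lay below the 10 other libraries. The DPD libraries did not overlap with the DOX libraries, and a test of that difference is given further on.
Abcg2 (BCRP), a pump of wide substrate range found on stem cells and barrier tissues, measured 6.06 and 5.85 in R+D, 6.62 and 8.34 in R+X, 5.50 and 6.01 in RP, 6.85 and 5.70 in DPD and 7.63 and 8.26 in DOX libraries, against 7.12 and 8.59 in Ctrl libraries (CPM). All R+D, RP and DPD libraries lay below both Ctrl libraries, on the other side of them from Abcb1b. The log2 fold change of RP over Ctrl was -0.45 ± 0.21 (edgeR adjusted p = 0.248), and -0.77 after removal of the length and GC trend.

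Cbr1, the carbonyl reductase best known for making doxorubicinol in humans, was the least counted of the genes, with 76 to 183 counts per library. It measured 2.48 and 2.75 in R+D, 1.97 and 3.50 in R+X, 2.86 and 2.71 in RP, 3.07 and 2.67 in DPD and 3.66 and 1.54 in DOX libraries, against 2.71 and 2.81 in Ctrl libraries (CPM). The lowest and the highest of the 12 values were both DOX libraries, so no order of the groups can be read from it.
Cbr3, a close relative with its own substrate range, measured 5.89 and 3.39 in R+D, 3.77 and 3.77 in R+X, 5.69 and 5.58 in RP, 5.73 and 2.95 in DPD and 7.45 and 5.85 in DOX libraries, against 4.20 and 7.89 in Ctrl libraries (CPM). The Ctrl libraries alone spanned most of the range, and both R+X libraries lay below them. Cbr3 made up 51.8% (46.7% to 57.0%, exact binomial) of the counts of the pair in R+X replicate 2 and 79.2% (74.6% to 83.2%) in DOX replicate 2, the lowest and highest share.
Akr1a1 measured 383 and 427 in R+D, 449 and 514 in R+X, 414 and 371 in RP, 583 and 383 in DPD and 756 and 493 in DOX libraries, against 556 and 783 in Ctrl libraries (CPM). All 6 libraries from conjugate-treated mice lay below both Ctrl libraries, and the DPD and DOX libraries were split, replicate 1 high and replicate 2 lower in each. The mean was 393 ± 30.2 CPM in RP tumours, against 669.8 ± 161 CPM in Ctrl tumours (SD, n = 2 each). The log2 fold change was -0.77 ± 0.26 (edgeR adjusted p = 0.170), and -0.44 without the length and GC trend and -0.50 without Ctrl replicate 2.

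Por, the reductase that feeds electrons to cytochromes P450, measured 84.0 and 62.7 in R+D, 86.1 and 79.8 in R+X, 78.8 and 72.6 in RP, 96.2 and 80.9 in DPD and 125 and 82.6 in DOX libraries, against 103 and 104 in Ctrl libraries (CPM). All R+D, R+X, RP and DPD libraries lay below both Ctrl libraries, and the DOX libraries held the highest value of all and a value within the lower group. The log2 fold change of RP over Ctrl was -0.45 ± 0.21 (edgeR adjusted p = 0.244). 
Xdh, which encodes xanthine dehydrogenase and its oxidase form and acts late in purine breakdown, varied most of the 10 genes, 2.96-fold between the highest and the lowest library. It measured 158 and 174 in R+D, 172 and 157 in R+X, 211 and 274 in RP, 137 and 205 in DPD and 108 and 142 in DOX libraries, against 129 and 92.5 in Ctrl libraries (CPM). Both RP libraries lay above the other 10 libraries, and every library of the R+D, R+X, RP and DPD groups lay above both Ctrl libraries.

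**Figure D2:**
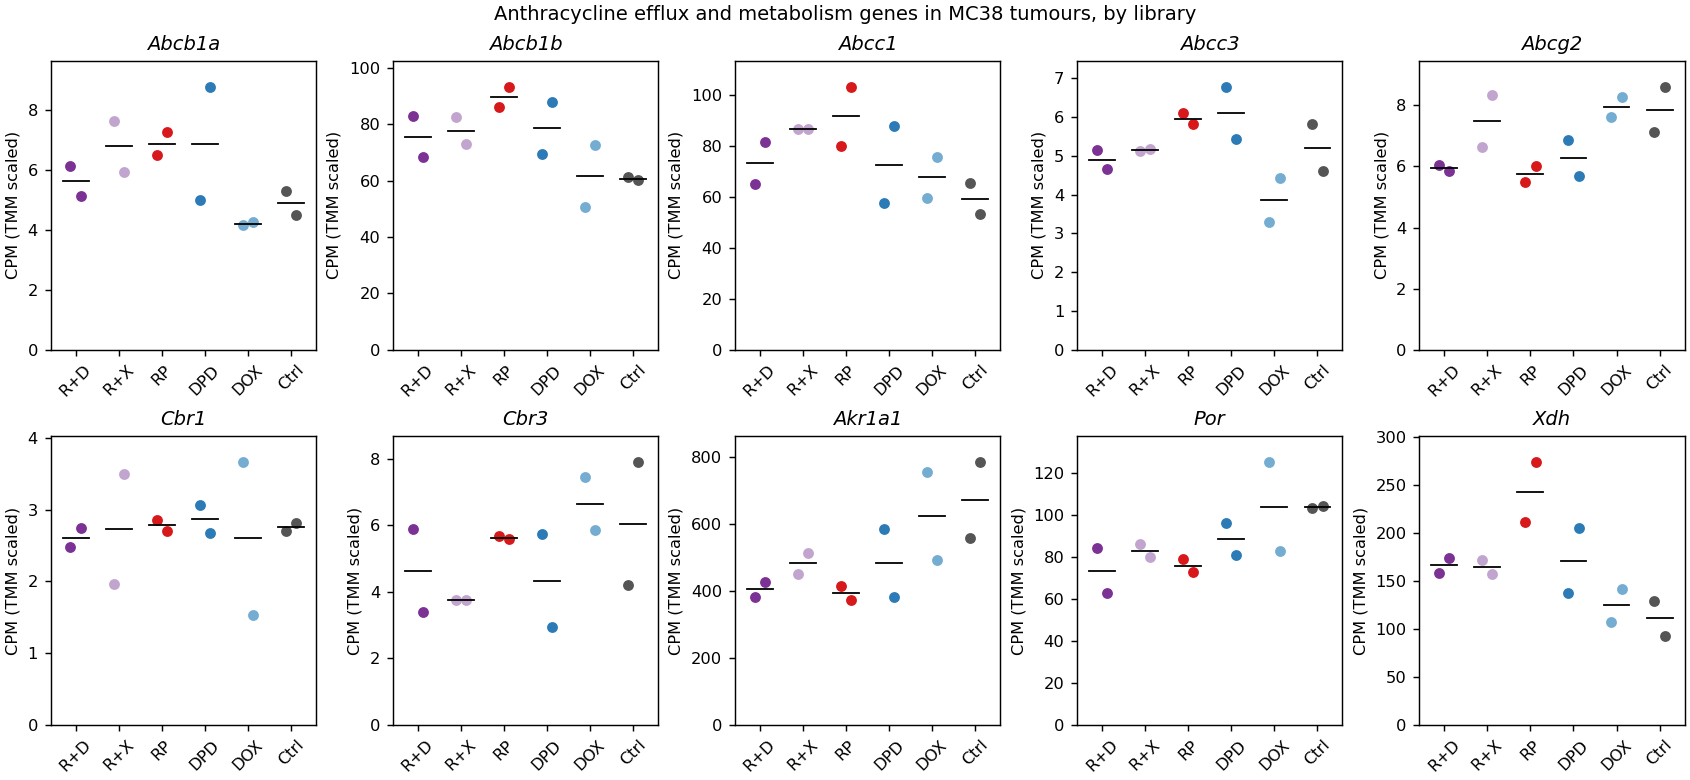
CPM of each gene by library (points) in 6 groups of 2 libraries, with the group mean as a bar; every axis starts at 0. Xdh is highest in both RP libraries (211 and 274 CPM) and Abcc3 lowest in both DOX libraries (3.29 and 4.41 CPM).

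The conjugate alone (RP against Ctrl) gave the clearest difference among the 10 genes, in Xdh. Xdh averaged 242 ± 44.3 CPM in RP tumours, against 111 ± 26.1 CPM in Ctrl tumours (SD, n = 2 each), or 2.18-fold, a log2 fold change of 1.13 ± 0.24. By edgeR it missed the threshold (unadjusted p = 0.000835, adjusted p = 0.127), and by DESeq2 it passed (adjusted p = 0.00193). It also passed in edgeR with the RP and Ctrl libraries alone in the fit (adjusted p = 0.0442) and with the length and GC trend removed (log2 fold change 0.98, adjusted p = 0.0435). Xdh did not pass in edgeR with RLE scaling (adjusted p = 0.128), without the low-count filter (0.106) or with a skeletal muscle score as covariate (0.565). Counts of all genes called in several of these fits are given at the end. In a bulk tumour, more cells that express a gene and more RNA per cell cannot be told apart. Over the 10 genes, edgeR called 0, beside 0.0154% of all genes tested, and DESeq2 called 1, beside 7.34%. Shares called by DESeq2 are, here and further on, of the genes to which it gave an adjusted p, 16118 to 19525 by comparison and 16496 in this one. An unadjusted p under 0.05 was reached by 4 of 10 (Xdh, Akr1a1, Abcb1b and Abcc1), beside 21.4% of genes tested, and the groups did not overlap for 8 of 10, beside 59.5%. Most genes tested thus also had groups that did not overlap. The median of the 10 log2 fold changes was 0.10, beside 0.06 over all genes tested. Cbr1 (0.01 ± 0.40, 95% interval -0.86 to 0.89) and Cbr3 (-0.10 ± 0.39, -0.96 to 0.76) had intervals too wide to show or to limit a change of moderate size.

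**Figure D3:**
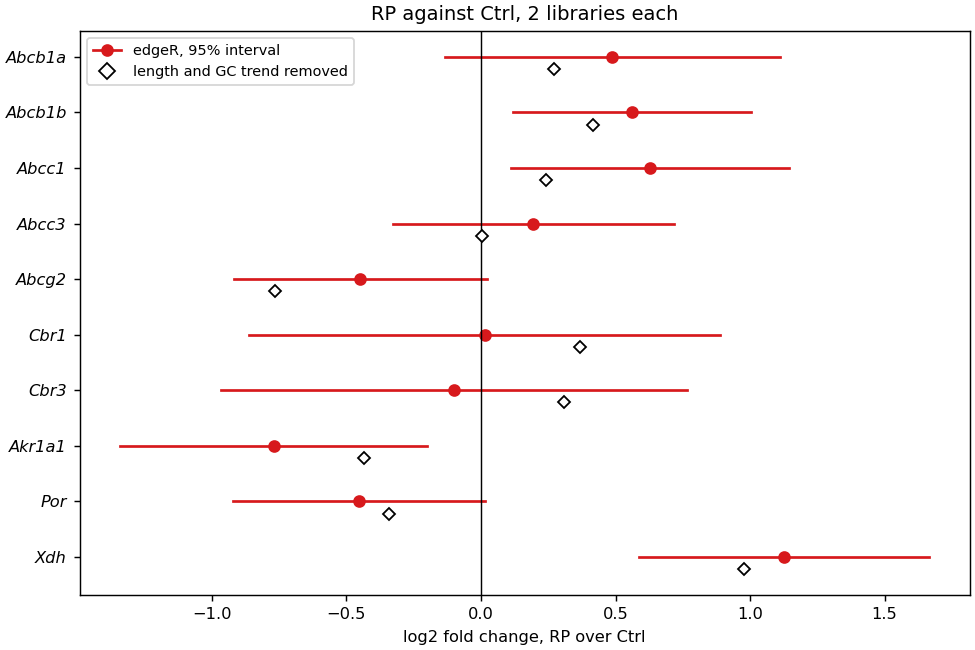
Log2 fold change of RP over Ctrl for each gene with its 95% interval from edgeR (circles), and the value after removal of the length and GC trend of each library (diamonds). Xdh lies above 0 on both, at 1.13 and 0.98, while Abcc1 moves to 0.24 and Abcc3 to 0.00.

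The long transcripts of the pumps (4306 to 6792 bases) and of Xdh (4600 bases) and the short ones of Cbr1 (1237), Cbr3 (1170) and Akr1a1 (1420) fall on different sides of the length trend described above. The 4 libraries with a negative trend held the 4 lowest Xdh values of the 12, the 4 highest Akr1a1 values and the 4 highest Por values. They also held 3 of the 4 lowest values of Abcb1a, Abcb1b and Abcc1. Not all genes went that way by length. Of the pump Abcc3 these libraries held 2 of the 4 lowest and 2 of the 4 highest values. Of the pump Abcg2 they held 0 of the 4 lowest and 2 of the 4 highest. The counts for Cbr1 and Cbr3 were the same as for Abcg2, but for short transcripts this is the direction of the trend. Removal of the trend left the direction of Xdh, Akr1a1, Por, Abcb1b, Abcb1a, Abcc1 and Abcg2 in RP against Ctrl as it was. It turned that of Cbr3, at 0.31 with the trend removed and -0.10 before. Cbr1, near 0 before, was then at 0.37, and Abcc3 was near 0. The RP libraries, highest in Xdh of all 12, had length trends of 0.046 (replicate 1) and 0.313 (replicate 2). DPD replicate 2, next in Xdh at 205 CPM, had one of 0.371. The part of the trend in these differences was not tested further.

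**Figure D4:**
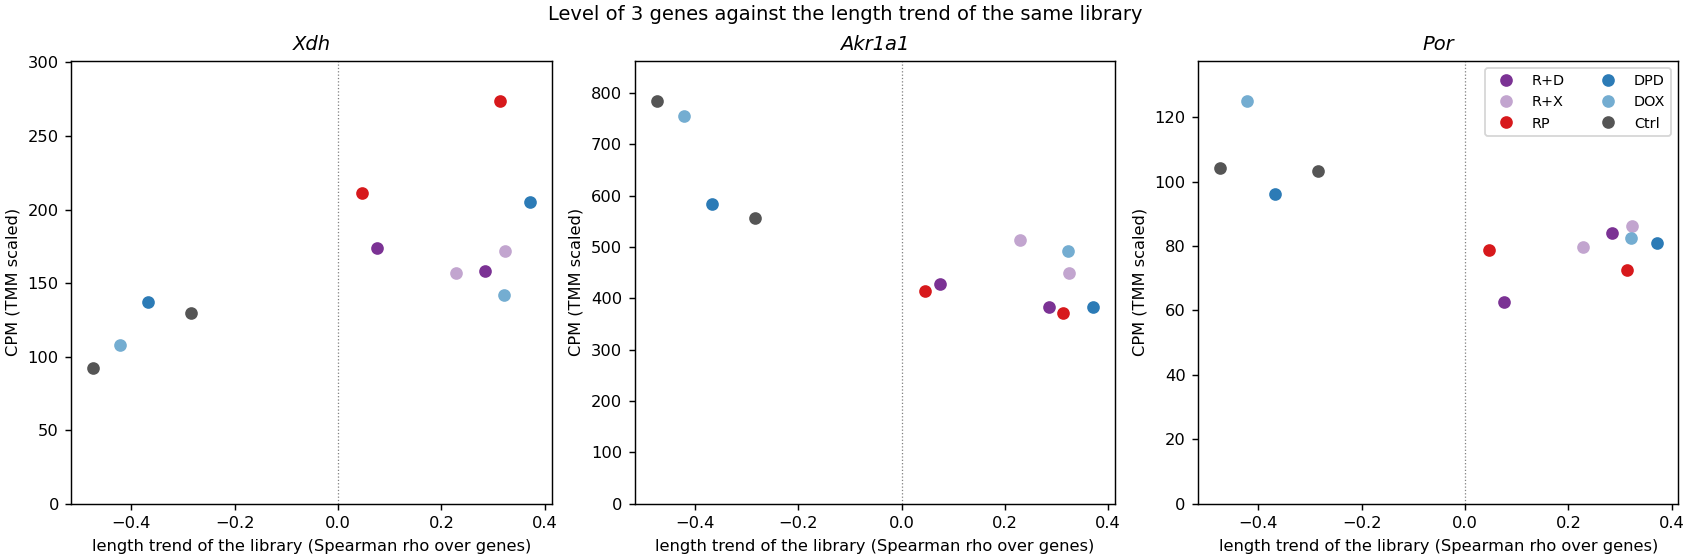
CPM of Xdh, Akr1a1 and Por (vertical axes from 0) against the length trend of the same library (Spearman correlation over genes), coloured by group. The 4 libraries left of 0 hold the lowest Xdh and the highest Akr1a1 and Por values.

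Markers of other cell types also differed between RP and Ctrl tumours. Of 12 T and NK cell markers 12 were higher in RP by point value, and their summed level was 50.2 to 59.3 CPM in RP libraries, against 25.5 to 31.5 CPM in Ctrl libraries. Of 12 endothelial markers 12 were higher, with sums of 202 to 275 CPM in RP, against 138 to 166 CPM in Ctrl. Of 20 skeletal muscle markers 19 were higher, with sums of 241 to 487 CPM in RP, against 180.2 to 211 CPM in Ctrl, and R+D replicate 2 was high as well. The sum of 12 macrophage markers was 1732 to 1988 CPM in RP, against 1571 to 1732 CPM in Ctrl, 8 of them higher, and that of 10 fibroblast markers was 4924 to 7139 CPM in RP, against 4688 to 5864 CPM in Ctrl, 7 of them higher. Of 5 erythroid markers tested all were lower in RP, with sums of 51.0 to 87.7 CPM in RP, against 223.3 to 260.4 CPM in Ctrl. Of 12 keratinocyte markers 11 were higher in RP (median log2 fold change 2.47), 0 of them at an unadjusted p under 0.05. Their sums were 404 to 549 CPM in RP, against 394 to 462 CPM in Ctrl. Krt14 alone had 259 to 408 CPM over the 12 libraries. Adipocyte sums were 44.9 to 54.8 CPM in RP, against 37.8 to 47.5 CPM in Ctrl, with 4 of 7 markers tested higher. Epithelial sums were 19.4 to 23.9 CPM in RP, against 26.3 to 28.1 CPM in Ctrl, with 3 of 6 markers tested higher. The part of the cell type markers in the values of the 10 genes was not tested, except for a muscle score as a covariate. With it the log2 fold change was 1.08 for Xdh, 0.73 for Abcb1b, 0.57 for Abcb1a, 0.49 for Abcc1, 0.27 for Abcc3 and -0.83 for Akr1a1, each in the same direction as before. Por and Abcg2 were smaller, at -0.25 and -0.29, and Cbr3 (0.52) and Cbr1 (-0.01) turned. No gene of the 10 passed in that fit.

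Doxorubicin alone gave no called difference. For DOX against Ctrl, edgeR called 0 of the 10 genes, beside 0% of genes tested, DESeq2 called 0, beside 0.00512%, and 0 had an unadjusted p under 0.05, beside 2.08%. Groups did not overlap for 2 of 10 (Abcb1a and Abcc3), beside 17.7%. The smallest p was that of Abcc3, with a mean of 3.85 ± 0.797 CPM in DOX tumours and 5.20 ± 0.857 CPM in Ctrl tumours (SD, n = 2 each) and a log2 fold change of -0.43 ± 0.24 (edgeR adjusted p = 1.00). It was -0.53 with the length and GC trend removed, -0.24 and -0.66 without DOX replicate 1 or 2, and -0.25 without Ctrl replicate 1. The P-glycoprotein genes, known in cultured cells to be induced by anthracyclines, stood at 4.15 and 4.25 CPM (Abcb1a) and 50.5 and 72.7 CPM (Abcb1b) in DOX tumours, against 5.28 and 4.50 CPM and 61.2 and 60.1 CPM in Ctrl tumours.

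For the prodrug alone, DPD against Ctrl, edgeR called 0 of 10, beside 0% of genes tested, and DESeq2 0, beside 0.0359%. Xdh alone had an unadjusted p under 0.05, so 1 of 10, beside 4.02%. Its mean was 171 ± 48.3 CPM in DPD tumours, against 111 ± 26.1 CPM in Ctrl tumours (SD, n = 2 each), a log2 fold change of 0.63 ± 0.24 (edgeR adjusted p = 0.725). It was 0.50 with the length and GC trend removed, 0.30 without DPD replicate 2 and 0.40 without Ctrl replicate 2. Groups did not overlap for 4 of 10, beside 37.9%. The comparisons with Ctrl share the same 2 Ctrl libraries and are not independent.

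The prodrug and its parent drug were compared at the same dose, route and schedule (DPD against DOX), and again behind the conjugate (R+D against R+X), which makes 2 comparisons. In DPD against DOX, edgeR called 0 of 10, beside 0% of genes tested, and DESeq2 0, beside 0.0461%. An unadjusted p under 0.05 was reached by 2 of 10, beside 4.29%, and 4 of 10 did not overlap, beside 23.8%. The pump Abcc3 averaged 6.09 ± 0.947 CPM in DPD tumours and 3.85 ± 0.797 CPM in DOX tumours (SD, n = 2 each), a log2 fold change of 0.66 ± 0.24 (95% interval 0.14 to 1.19, edgeR adjusted p = 0.979). Abcb1a averaged 6.86 ± 2.66 CPM in DPD tumours and 4.20 ± 0.0747 CPM in DOX tumours, a log2 fold change of 0.71 ± 0.28 (0.08 to 1.33, edgeR adjusted p = 0.979), and 0.25 without DPD replicate 2. These pumps were the only ones whose unadjusted interval left out 0. With only the DPD and DOX libraries in the fit, the edgeR unadjusted p was 0.0931 for Abcc3 and 0.0945 for Abcb1a. Xdh gave 0.46 ± 0.24 (-0.08 to 0.99) and Abcb1b 0.35 ± 0.20 (-0.09 to 0.79). Single libraries moved both: Xdh was at 0.72 or 0.14 once replicate 1 or 2 of DPD was left out, and at 0.27 once replicate 1 of DOX was. Abcb1b was at 0.17 without DPD replicate 2, 0.11 without DOX replicate 1 and 0.64 without DOX replicate 2. With the length and GC trend removed, Abcc3 was at 0.63, Abcb1a at 0.61, Xdh at 0.41 and Abcb1b at 0.33. The intervals of the remaining pumps were -0.41 to 0.62 for Abcc1 and -0.81 to 0.13 for Abcg2. Those of the reductases were -0.73 to 1.02 for Cbr1, -1.48 to 0.25 for Cbr3, -0.94 to 0.20 for Akr1a1 and -0.70 to 0.24 for Por. These ranges do not show that the compounds act alike on these genes. Cell type markers also differed. Higher in DPD than in DOX by point value were 12 of 12 T and NK cell, 11 of 12 macrophage and 10 of 12 endothelial markers. So were 15 of 20 muscle, 7 of 12 keratinocyte, 6 of 10 fibroblast, 7 of 7 adipocyte and 4 of 6 epithelial markers tested. All 5 erythroid markers tested were lower, 1 called by DESeq2. With the muscle score as a covariate Abcc3 was at 0.68 and Abcb1a at 0.73. The part of the other markers was not tested.

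Behind the conjugate, R+D against R+X, edgeR called 0 of 10, beside 0% of genes tested, DESeq2 0, beside 0.219%, and 0 had an unadjusted p under 0.05, beside 5.27%. Groups did not overlap for 3 of 10 (Abcc1, Abcg2 and Akr1a1, each lower in R+D), beside 45.5%. The smallest p was that of Abcg2, which averaged 5.95 ± 0.150 CPM in R+D tumours and 7.48 ± 1.21 CPM in R+X tumours (SD, n = 2 each), a log2 fold change of -0.33 ± 0.21 (-0.80 to 0.14, edgeR adjusted p = 1.00). It was -0.24 with the length and GC trend removed and -0.16 without R+X replicate 2. Abcc3 and Abcb1a, which had the smallest p-values between DPD and DOX, gave -0.08 ± 0.24 (-0.60 to 0.45) and -0.27 ± 0.28 (-0.89 to 0.35) here. Xdh was close in both groups, with 166 ± 11.1 CPM in R+D and 164 ± 10.9 CPM in R+X tumours and an interval of -0.52 to 0.55. For the other genes the intervals were -0.48 to 0.40 (Abcb1b), -0.75 to 0.28 (Abcc1), -0.94 to 0.81 (Cbr1), -0.57 to 1.17 (Cbr3), -0.82 to 0.32 (Akr1a1) and -0.65 to 0.29 (Por). All 20 skeletal muscle markers were higher in R+D by point value (median log2 fold change 2.87), 1 called by DESeq2. Their sums were 175 CPM in R+D replicate 1 and 575 CPM in R+D replicate 2, against 140.3 to 150 CPM in R+X libraries. The high sum in R+D thus came from 1 library. Higher too were 12 of 12 T and NK cell, 10 of 12 endothelial, 6 of 10 fibroblast and 5 of 7 adipocyte markers tested. Of the rest, 5 of 12 macrophage, 6 of 12 keratinocyte, 3 of 6 epithelial and 0 of 5 erythroid markers tested were higher. With the muscle score as a covariate Abcg2 was at -0.19. The part of the other markers was not tested.

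**Figure D5:**
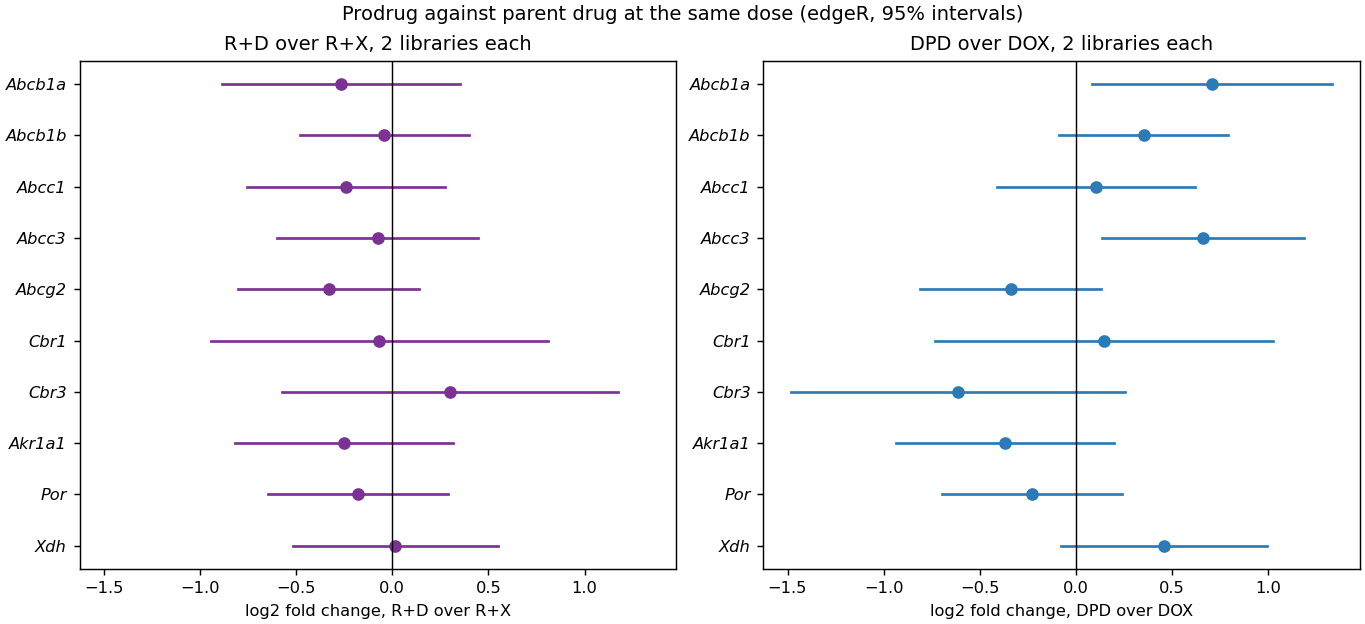
Log2 fold changes with 95% intervals from edgeR for the prodrug over doxorubicin, behind the conjugate (left, R+D over R+X) and alone (right, DPD over DOX). The intervals of Abcb1a and Abcc3 leave out 0 in the right panel, and all 10 intervals hold 0 in the left panel.

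The combinations were set against Ctrl and against their parts. In R+D against Ctrl, edgeR called 0 of 10, beside 0%, DESeq2 0, beside 1.34%, and 3 of 10 had an unadjusted p under 0.05, beside 15.4%. These were Akr1a1 (-0.73 ± 0.26, edgeR adjusted p = 0.314), Xdh (0.58 ± 0.24, adjusted p = 0.316) and Por (-0.50 ± 0.21, adjusted p = 0.319), all log2 fold changes. With the length and GC trend removed they were -0.41 for Akr1a1, 0.45 for Xdh and -0.40 for Por. Without Ctrl replicate 2, Akr1a1 was at -0.46 and Xdh at 0.36, and without R+D replicate 2 Por was at -0.30. In R+X against Ctrl, edgeR called 0 of 10, beside 0%, DESeq2 0, beside 0.0205%, and 2 of 10 had an unadjusted p under 0.05, beside 6.00%, namely Xdh (0.57 ± 0.24, adjusted p = 0.575) and Abcc1 (0.55 ± 0.23, adjusted p = 0.575). With the trend removed Abcc1 was at 0.20 (edgeR unadjusted p = 0.206) and Xdh at 0.42, and without Ctrl replicate 2 Xdh was at 0.35. Groups did not overlap for 5 of 10 in R+D against Ctrl, beside 58.3%, and for 7 of 10 in R+X against Ctrl, beside 56.0%. Xdh was at similar levels in both combinations, between those of RP and Ctrl tumours.

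Set against the conjugate alone, Xdh was lower in both combinations without passing the test. The log2 fold change was -0.54 ± 0.24 for R+D over RP (edgeR adjusted p = 1.00) and -0.56 ± 0.24 for R+X over RP (adjusted p = 0.540). Without RP replicate 2 the values were -0.35 for R+D over RP and -0.35 for R+X over RP, and with the trend removed -0.53 and -0.56, in the same order. Both comparisons use the same RP libraries and are not independent. Xdh was the only gene of the 10 with an unadjusted p under 0.05 in either, so 1 of 10, beside 2.73% of genes tested in R+D against RP and 8.68% in R+X against RP. EdgeR and DESeq2 called 0 of 10 in both comparisons, beside 0% and 0.0512% in R+D against RP and 0% and 1.77% in R+X against RP. Set against the drug alone, Abcb1a was higher in R+X than in DOX tumours (0.69 ± 0.28, edgeR adjusted p = 0.965), the only gene with an unadjusted p under 0.05, so 1 of 10, beside 2.80%. With the trend removed it was at 0.54 (edgeR unadjusted p = 0.0640). In R+D against DPD, 0 of 10 reached it, beside 2.30%, and the smallest p was that of Abcc3 (-0.32 ± 0.24, adjusted p = 1.00), at -0.36 with the trend removed and -0.15 without DPD replicate 1. EdgeR and DESeq2 called 0 of 10 in both, beside 0% and 0.0154% in R+X against DOX and 0% and 0.0359% in R+D against DPD.

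Whether the conjugate's effect on Xdh differed with and without a drug was tested as a contrast chosen after the data were seen. The difference in log2 fold change was -1.17 ± 0.34 for DPD (R+D over DPD, minus RP over Ctrl; edgeR unadjusted p = 0.00609, adjusted p = 0.840). For DOX (R+X over DOX, minus RP over Ctrl) it was -0.73 ± 0.34 (unadjusted p = 0.0576, adjusted p = 0.998). Neither passed, and 0 of 19525 genes passed in either contrast, with 871 and 724 at an unadjusted p under 0.05. Both contrasts subtract the same RP over Ctrl difference and are not independent. That difference was the largest of the 10 genes in Xdh, so singling out Xdh by itself favours a negative value. The routes of the drugs and the unstated conjugate dose differ along with the combinations and cannot be told apart from them.

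Averaged over the drug settings, the 6 libraries with the conjugate (R+D, R+X and RP) were set against the 6 without (DPD, DOX and Ctrl). EdgeR called 0 of 10, beside 0.0154% of genes tested, and 5 of 10 had an unadjusted p under 0.05, beside 20.3%. DESeq2 called 2, beside 5.90%: on average Xdh was higher (0.49 ± 0.14 by edgeR, DESeq2 adjusted p = 0.0307) and Akr1a1 lower (-0.47 ± 0.15 by edgeR, DESeq2 adjusted p = 0.0460) by that test. By setting, the log2 fold change of Xdh was 1.13 for RP over Ctrl, 0.40 for R+X over DOX and -0.04 for R+D over DPD. Akr1a1 was at -0.77, -0.37 and -0.25, in the same order. Xdh averaged 191 ± 44.9 CPM with the conjugate and 136 ± 39.0 CPM without, and Akr1a1 426 ± 51.7 CPM with and 592 ± 154 CPM without (SD, n = 6 libraries each). Each of these SDs spans 3 groups and so includes differences between treatments. The route of the drug also differed between R+D and DPD and between R+X and DOX, and cannot be told apart from the conjugate there. The others at an unadjusted p under 0.05 were Por (-0.35 ± 0.12), Abcc1 (0.33 ± 0.13) and Abcb1b (0.28 ± 0.11), with edgeR adjusted p-values of 0.190, 0.218 and 0.221. In the same order of settings, Por was at -0.45, -0.32 and -0.27, Abcc1 at 0.63, 0.36 and 0.02, and Abcb1b at 0.56, 0.33 and -0.06. The ranges of the 6 and 6 libraries overlapped for all 10 genes; 0.312% of genes tested did not overlap. Without DOX replicate 2, edgeR called 4 of the 10 (Xdh, Abcb1b, Por and Akr1a1), along with 3321 of all genes tested. With the length and GC trend removed, Xdh was at 0.42, Abcb1b at 0.20, Abcc1 at 0.13, Por at -0.28 and Akr1a1 at -0.26. Markers of other cell types moved in the same comparison. Of 20 skeletal muscle markers 19 were higher with the conjugate by point value, 16 of them called by DESeq2, with sums of 140.3 to 575 CPM with the conjugate and 134 to 222.3 CPM without. Of 12 T and NK cell markers 11 were higher, 2 of them called, with sums of 15.6 to 59.3 CPM with the conjugate and 19.4 to 36.8 CPM without. Of 5 erythroid markers tested 5 were lower and called, with sums of 21.7 to 87.7 CPM with the conjugate and 25.3 to 368 CPM without. Higher by point value were also 11 of 12 endothelial (146 to 275 CPM with the conjugate and 125 to 178 CPM without), 7 of 10 fibroblast (4383 to 7139 CPM with the conjugate and 4602 to 7669.5 CPM without) and 7 of 12 macrophage markers (1355 to 1988 CPM with the conjugate and 1127 to 1892 CPM without), with 1, 2 and 1 called. All these ranges overlapped between the arms. With the muscle score as a covariate Xdh was at 0.46, Akr1a1 at -0.51, Abcb1b at 0.40, Abcc1 at 0.23 and Por at -0.21, and the part of the other markers was not tested. In the test for any difference among the 6 groups, edgeR called 0 of 10, beside 0.0154%, 1 of 10 (Xdh, unadjusted p = 0.0101, adjusted p = 0.355) had an unadjusted p under 0.05, beside 9.44%, and DESeq2 called Xdh (adjusted p = 0.0118), 1 of 10, beside 4.78%.

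Over the 12 libraries the 10 genes fell into sets that varied together. On log2 CPM, Pearson's r was 0.883 between Abcc1 and Xdh, 0.876 between Abcb1b and Xdh and 0.828 between Abcb1a and Abcb1b. Akr1a1 and Por were alike at r = 0.812, and Akr1a1 ran opposite to Xdh (r = -0.908) and to Abcb1b (r = -0.897). Cbr1 was not close to any other member, with r from -0.360 to 0.340. These values describe 12 libraries that share groups and the length trend, and the Abcb1 pair may also share reads. The genes most like each member were taken from 13136 named genes of at least 1 CPM. For Xdh they were Abca1 (r = 0.976), Stat2 (0.975) and Itga1 (0.971). For Akr1a1 they were Capns1 (0.995), Prelid1 (0.994) and Cd63 (0.994). Abcb1b was most like Kif15 (0.955), Dennd4a (0.953) and Hells (0.949). Abcc1 was most like Nfkbiz (0.964), Srrm1 (0.960) and Rfwd3 (0.954). Por was most like Mvd (0.965), Hyal2 (0.960) and Capn1 (0.959), and Abcg2 most like Siah1a (0.959), Dazap2 (0.958) and Rac1 (0.957). The likest genes of Abcb1a, Abcc3, Cbr1 and Cbr3 were Ppp1r3e (0.902), Nfam1 (0.889), Cdk11b (0.864) and Eid2b (0.905).

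Other genes of the same routes gave the setting in RP against Ctrl, where edgeR called 0 of the genes tested in each of the 6 lists. DESeq2 called 7.34% of all genes in this comparison, the background for its counts in the lists. Of 9 other efflux pumps tested, 8 were higher and 1 lower by point value, with a median log2 fold change of 0.18, beside 0.06 over all genes tested. Abca2, a lysosomal lipid transporter, averaged 113 ± 14.9 CPM in RP and 66.0 ± 22.7 CPM in Ctrl tumours (0.77 ± 0.26), and the mitochondrial pump Abcb8 48.0 ± 3.67 CPM in RP and 63.2 ± 4.38 CPM in Ctrl tumours (-0.40 ± 0.17). Of 6 uptake carriers tested, 5 were higher and 1 lower (median 0.51). Slco3a1, an organic anion carrier, averaged 17.3 ± 1.05 CPM in RP and 8.12 ± 0.978 CPM in Ctrl tumours (1.09 ± 0.22) and rose by DESeq2 (adjusted p = 0.00102), the only called carrier.
Of 12 other carbonyl and aldo-keto reductases, 2 were higher and 10 lower (median -0.42), with 0 called by DESeq2. Akr1b8 averaged 48.5 ± 1.67 CPM in RP and 76.4 ± 11.95 CPM in Ctrl tumours (-0.66 ± 0.25), and Cbr4, a mitochondrial relative of the carbonyl reductases, 9.66 ± 0.960 CPM in RP and 15.4 ± 4.17 CPM in Ctrl tumours (-0.67 ± 0.28). Of all genes tested, 46.1% were lower by point value. With the length and GC trend removed, 5 of these reductases were higher and 7 lower, beside 47.1% of all genes lower.

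Of 12 other quinone-reducing and single-electron enzymes, 3 were higher and 9 lower in RP than in Ctrl (median -0.51), and DESeq2 called 1 each way. Nos2, the inducible nitric oxide synthase of activated macrophages, averaged 70.8 ± 39.0 CPM in RP and 14.0 ± 5.75 CPM in Ctrl tumours (2.34 ± 0.51) and rose by DESeq2 (adjusted p = 0.000214). Nqo1, the quinone reductase that avoids the semiquinone, averaged 10.9 ± 1.83 CPM in RP and 19.2 ± 4.44 CPM in Ctrl tumours (-0.82 ± 0.22) and fell by DESeq2 (adjusted p = 0.0164). Of 14 genes of superoxide, peroxide and iron handling, 3 were higher and 11 lower (median -0.48), and DESeq2 called 1 higher and 2 lower. Tfrc, the transferrin receptor, averaged 121 ± 56.4 CPM in RP and 35.5 ± 1.80 CPM in Ctrl tumours (1.76 ± 0.39; DESeq2 adjusted p = 0.000807), and the metallothionein Mt1 441 ± 13.5 CPM in RP and 1072 ± 384 CPM in Ctrl tumours (-1.28 ± 0.32; DESeq2 adjusted p = 0.00500). Of 11 regulators of these genes tested, 6 were higher and 5 lower (median 0.01), with 0 called by DESeq2. The aryl hydrocarbon receptor Ahr averaged 3.82 ± 0.257 CPM in RP and 2.03 ± 0.437 CPM in Ctrl tumours (0.91 ± 0.39), and Keap1, the partner that holds down the antioxidant regulator Nfe2l2, 86.8 ± 6.53 CPM in RP and 66.0 ± 9.38 CPM in Ctrl tumours (0.40 ± 0.18). With the length and GC trend of each library removed, the medians were 0.18 for the other pumps, 0.43 for the uptake carriers, -0.15 for the other carbonyl and aldo-keto reductases, -0.24 for the quinone-reducing enzymes, -0.27 for superoxide, peroxide and iron handling and 0.08 for the regulators, beside 0.03 over all genes tested. In that fit edgeR called Slco3a1 and Tfrc, along with 111 genes in all. The 6 lists were chosen with earlier results of these data known, and their counts support nothing by themselves.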

How the data were processed

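RNA-seq of 12 MC38 tumour libraries was used. Total RNA came from TRIzol extraction and the NEBNext Ultra kit, per the labels' protocols. HISAT2 2.1.0, StringTie 1.3.5 and DESeq2 are listed without roles in the submitters' processing notes, as is genome build GRCm38. Annotation and use of strand are not stated there. The authors deposited whole-number counts per gene, not normalised, with 43698 rows and 42803 distinct names.

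Counts were tested in R 4.3.3 with edgeR 4.0.16 (quasi-likelihood, TMM scaling, filterByExpr), in 1 fit of all 12 libraries in 6 groups with 6 residual degrees of freedom and a biological coefficient of variation of 0.257. Genes were called at a Benjamini-Hochberg adjusted p under 0.05 over the 19525 genes tested. The pipeline was run on simulated counts for RP against Ctrl, with changes mostly larger than those of the 10 genes. That run does not show whether changes of their size would be found. Intervals of log2 fold changes are 95% intervals from the same fit. Group readings came from the agent label: RP as Ru-PD-L1, R+X and R+D as its combinations with DOX and DPD. If the last readings were exchanged, their values would change places. Replicate numbers 1 and 2 are names in accession order and pair nothing.

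Members, lists, tests and alternatives were chosen with earlier results of these data known. Named were all 10 members, and of each list of other pathway genes up to 2 genes of smallest p. As alternatives, DESeq2 1.42.0 replaced edgeR, RLE replaced TMM, the low-count filter was dropped, the fit held only the compared groups, each library was left out in turn, and the mean log2 CPM (prior count 2) of 20 skeletal muscle markers was a covariate. Chosen after the data were seen were offsets for each library's lowess trend (span 0.3) of log2 ratio over transcript length and GC content, and the difference of the conjugate's effect with and without a drug. Lengths are of the longest protein-coding transcript in GENCODE vM21, found for 83.2% of genes tested; genes with none were left uncorrected. Promoters are from RefSeq (GRCm38.p6), with entries for 7 of 10 members. No proteins were printed.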

Additional observations from a re-analysis of the deposited data

How the results depend on the processing

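With 2 libraries a group, a change of moderate size in 1 gene can miss the test, above all for Cbr1, Cbr3, Abcb1a, Abcc3 and Abcg2, which had few counts. In edgeR 0 of the 10 genes passed in all 13 comparisons. The number called became 1 (Xdh) for RP against Ctrl by DESeq2, with only the RP and Ctrl libraries in the fit, and with the length and GC trend removed. It became 2 (Xdh and Akr1a1) by DESeq2 for conjugate groups against groups without, and 1 (Xdh) by DESeq2 for any difference among the 6 groups. Leaving out 1 library gave 0 to 4 members for conjugate groups against groups without, the 4 without DOX replicate 2, and 0 for the other 12 comparisons. All other settings gave 0 members. The cause of the differences between settings was not tested. Genes called in RP against Ctrl numbered 3 in edgeR, 1211 by DESeq2, 364 with only these groups in the fit, 111 with the trend removed, 14 without the low-count filter and 0 with the muscle covariate, and 0 to 38 with 1 library left out. For conjugate groups against groups without they numbered 3, against 951 by DESeq2 and 0 to 3321 with 1 library left out, and for any difference 3, against 934 by DESeq2.

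Of 51 recomputed fold changes of the 10 genes, 38 never changed sign. With the length and GC trend removed, the log2 fold change turned to 0.0054 for Abcb1b in R+D against R+X, -0.024 for Abcc1 in DPD against DOX, 0.31 for Cbr3 in RP against Ctrl, and -0.0069 for Abcc3 and 0.21 for Cbr1 in conjugate groups against groups without. With the muscle covariate it turned to 0.11 for Abcb1b and -0.034 for Xdh in R+D against R+X, -0.014 for Cbr1 and 0.52 for Cbr3 in RP against Ctrl, and 0.14 for Cbr3 in conjugate groups against groups without. Cbr1 in RP against Ctrl was -0.00032 by DESeq2, -0.00032 with RLE scaling and -0.0084 with only these groups in the fit. With 1 library left out, signs turned in R+D against R+X for Abcb1b (-0.188 to 0.0931), Cbr1 (-0.42 to 0.40), Cbr3 (-0.15 to 0.65), Por (-0.403 to 0.0183) and Xdh (-0.0574 to 0.0844). They also turned in DPD against DOX for Abcc1 (-0.23 to 0.38), Cbr1 (-0.35 to 0.90) and Por (-0.50 to 0.10), in RP against Ctrl for Cbr1 (-0.0262 to 0.0415) and Cbr3 (-0.49 to 0.42), and for Cbr1 in conjugate groups against groups without (-0.19 to 0.24). Xdh in RP against Ctrl ranged from 0.90 to 1.39, and a group left with 1 library was assumed to vary like the others. No paired analysis was possible because the labels number no replicates.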
